A study of Bos taurus with 18 samples.

Results

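Bovine miRNAs with a high serial number were followed through small RNA libraries of the rumen, the large fermentation chamber of the bovine stomach. Members are all bovine entries (prefix bta) whose name carries a number of 6000 or more, with any letter suffix or arm, listed in any library. The rule found 133 of the 966 names in the library files, and these came to 132 miRNAs. This is because miR-11975 and miR-11976 shared a site and were given the same 286 reads. The files give miR-11975 2 positions, of which 1 is that site. Names below are bovine and are written without the prefix, and human entries are marked (hsa).

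Papillae, the finger-like folds of the rumen wall, were sampled from 9 Holstein cows that carried a rumen cannula and were not lactating. Every cow first ate forage alone (FD) and was then moved to a high-grain ration with 65% concentrate (HG). In each diet 5 libraries came from control cows (CON) and 4 from cows in the arm labelled PHY, which gave the groups FD_CON, FD_PHY, HG_CON and HG_PHY and 18 libraries in all. The sources used here do not say what PHY is or whether it was already given at the forage sampling. All grain samples were later than the forage samples, so diet and time cannot be told apart.

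A miRNA is a short RNA cut from a hairpin-shaped precursor. Either arm of the hairpin, written 5p and 3p, can be loaded into an Argonaute protein, where bases near the 5′ end guide it to matching messenger RNAs, whose translation or stability then falls. Serial numbers follow the order in which miRNAs were registered in the miRBase catalogue, so a high number marks a late entry. Late entries often come from deep sequencing in a single species, and many lie in introns of protein-coding genes, from whose transcripts they can be cut. Nothing is said here of the targets of these miRNAs, which the data did not measure.

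Reads counted once per miRNA came to 5.74 M to 15.2 M (mega-reads) per library, and 515 to 591 miRNAs were listed in a library. By the authors' own totals, miRNAs took 27% to 48.6% of a library's reads. The defining marker of stratified epithelium, miR-205, had a mean of 28643 CPM (counts per mega-read of miRNA after TMM scaling). Of the 8 epithelial markers looked for, 6 were listed in all libraries, and miR-203a and miR-203b were not listed. The 6 muscle markers summed to 129260 to 297900 CPM on forage and to 102600 to 133030 CPM on grain. Their sum, which was lower in most grain libraries, was led by miR-143 with a mean of 133130 CPM. Of the 6 markers 4 were listed in all libraries, and the sum mostly follows miR-143 rather than each marker. Liver miR-122 reached at most 171 CPM, and the 3 columnar gut markers summed to 653 to 820 CPM. Fewer cells of a type and less RNA per cell cannot be told apart in these bulk samples.

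The members were a thin layer with a few abundant names on top. Of the 133 names, 31 were listed in all 18 libraries, 23 in 12 to 17 libraries, 52 in 2 to 11 and 27 in a single library. None of the 27 had more than 9 reads. In total reads over all libraries, 16 names had at least 1000, a further 30 at least 100, a further 46 at least 10, and 41 had fewer than 10. The library files list a name from 2 reads upwards, so a name not listed may still have had a read. Asking for at least 10 reads in every library left 19 names, and asking for at least 1 CPM left 20.

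**Figure D1:**
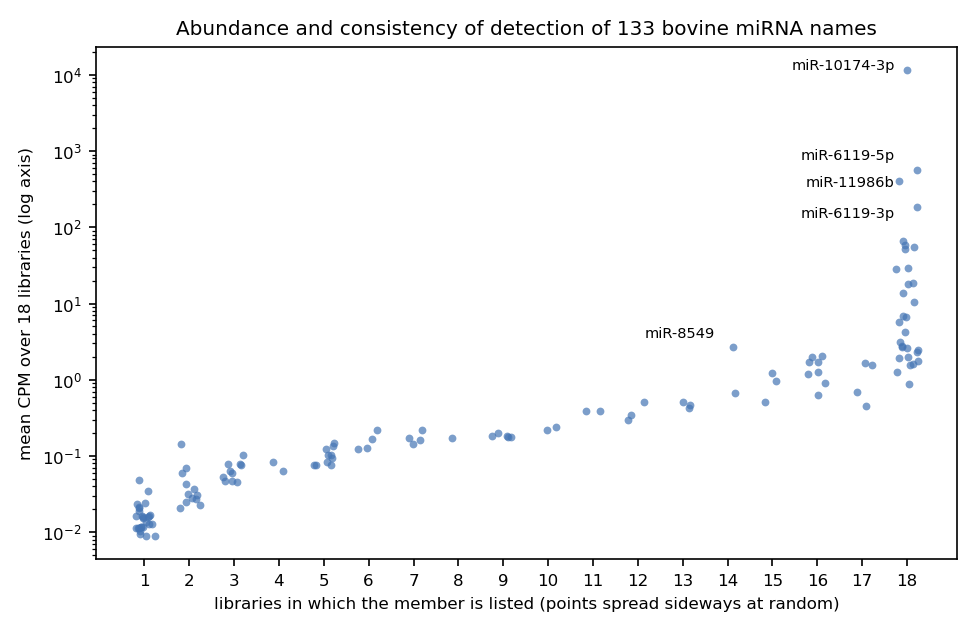
Mean CPM (log axis) of each of the 133 names against the number of libraries that list it, with 1 point per name. Names listed in all 18 libraries spread over the widest range of levels, with miR-10174-3p at 11481 CPM on top, and miR-8549 stands above the other names seen in 14 libraries.

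Detection per library was read beside depth. FD_CON libraries listed 65 to 74 members (median 72), FD_PHY libraries 60 to 67 (median 66.5), HG_CON libraries 51 to 70 (median 65) and HG_PHY libraries 57 to 76 (median 62). The lowest number, 51, was in HG_CON replicate 1, which was also the shallowest library at 5.74 M reads. HG_PHY replicate 4, at 13.3 M reads, had the highest number, 76, and the deepest library, FD_CON replicate 2, listed 73. The groups overlapped, and the FD_CON libraries were also the deeper ones, at 9.79 M to 15.2 M reads. A set of 25 names was listed only in forage libraries and 10 only in grain libraries, each in at most 3 libraries, so none of these separated the diets.

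**Figure D2:**
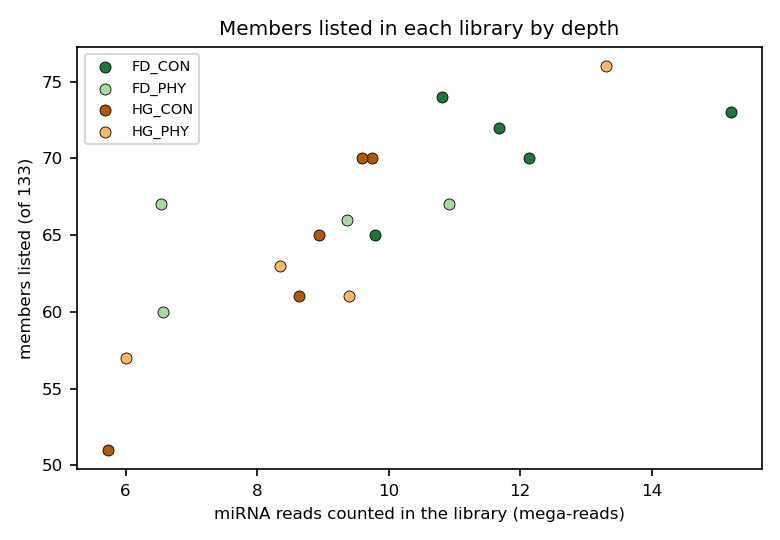
Number of members listed in each library against its miRNA reads in mega-reads (M), with 1 point per library coloured by group. The lowest number is 51 at 5.74 M reads and the highest 76 at 13.3 M, while a library of 6.53 M reads lists 67.

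Older bovine entries, those numbered below miR-2284 and let-7, were detected far more evenly. Of 347 such miRNAs 78.7% were listed in all libraries, against 23.5% of the 132 members, and their median mean level was 26.5 CPM, against 0.170 CPM. The members resembled the other later sets by these measures, without a test. The miR-2284 and miR-2285 families had 25% in all libraries and a median of 0.295 CPM, entries miR-2286 to miR-2490 had 16.1% and 0.136 CPM, and later entries below 6000 had 28.6% and 0.144 CPM. Only 4 members passed a mean of 100 CPM, while 135 older entries did.

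Within the members, detection differed between blocks of numbers, without falling at each step. Of the 7 names of the block miR-6119 to miR-6123, 5 were in every library, and the median total of a name was 4822 reads. Blocks miR-6501 to miR-6536 (20 names) and miR-6775 to miR-7865 (12 names) had 7 and 4 names in every library and median totals of 73.5 and 60.5 reads. The names miR-8549 and miR-9851 had a median total of 280 reads, and neither was in every library. The latest blocks were the sparsest by median total. Of 27 names from miR-10020 to miR-10225, 4 were in every library and the median total was 13 reads, and of 65 names from miR-11971 to miR-12064, 11 were in every library and the median was 22 reads. A single name held most reads of each of these late blocks, miR-10174-3p with 99.7% of the first and miR-11986b with 85.9% of the second.

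In every library the members together took little of the miRNA pool. Their share of reads had a median of 1.31% over the 18 libraries, from 1.04% in FD_CON replicate 3 to 1.57% in FD_CON replicate 4. Group medians were 1.36% in FD_CON, 1.31% in FD_PHY, 1.24% in HG_CON and 1.18% in HG_PHY, and the ranges of all 4 groups overlapped. One name, miR-10174-3p, made up 84.2% to 90.7% of the member reads. Without it the share fell to a median of 0.162%, from 0.127% to 0.196%, and the order of the groups changed, with medians of 0.134% in FD_CON, 0.170% in FD_PHY, 0.160% in HG_CON and 0.169% in HG_PHY. Of what remained, miR-6119-5p, miR-11986b and miR-6119-3p held 72.6%.

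The leading name has an older twin at its site. The files place miR-10174-3p at chr8:83009652-83009675 on the plus strand and miR-23b-3p at chr8:83009652-83009674, so the late entry is the older one with 1 more position at its 3′ end (which genome build these positions refer to is not stated by the files or labels used here). miR-23b is an old and widely conserved miRNA that is transcribed in a cluster with miR-27b and a copy of miR-24, and both of these names lie within 1000 nt of the site in the files. The authors counted 1983461 reads for miR-10174-3p and 1455053 for miR-23b-3p, and a read can be counted under both. In 18 of 18 libraries the longer name had more reads, 1.21 to 1.52 times those of miR-23b-3p. Dividing shared reads over the names they fit, as the authors' adjusted count does, left 0.63 of the count of miR-10174-3p. Its abundance is therefore to be read as that of the miR-23b-3p site. The reads behind it were diverse, with 294 to 549 distinct read sequences per library. On the other arm, miR-10174-5p overlapped miR-23b-5p and had 1205 reads against 618.

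Other members share reads as well. In all, 12 of the 133 names had an adjusted count below the raw count. The adjusted count was 0.57 of the raw count for miR-7857-5p, 0.25 for miR-11977, 0.21 for miR-8549 and 0.50 for miR-6529a, which had the same 2326 reads as the human entry miR-6529-5p (hsa) at its site. Levels of these names are uncertain by that much, whereas miR-6119-5p, miR-11986b and miR-7858 shared no reads. Levels of different miRNAs are compared as reads, since the members are of like length (17 to 25 nt, 103 of the 133 names with 21 to 23 nt), and how well each molecule was ligated was not measured.

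The abundant members fell into tiers. With mean ± SD over 18 libraries, miR-10174-3p had 11481 ± 1996 CPM, miR-6119-5p 564 ± 77.5 CPM, miR-11986b 405 ± 95.3 CPM and miR-6119-3p 182 ± 27.9 CPM. Bands of 1 SD around neighbouring means did not overlap in this order, except those of miR-6119-5p and miR-11986b. A second tier held miR-7857-5p at 66.5 ± 29.5, miR-7857-3p at 57.9 ± 26.4, miR-6120-3p at 55.3 ± 13.1 and miR-7859 at 51.6 ± 12 CPM, and these 4 did not differ from each other beyond their spread. The next tier comprised miR-11977 at 29.5 ± 6.46, miR-6123 at 28.8 ± 5.47, miR-6524 at 18.7 ± 4.77 and miR-10172-3p at 18.1 ± 4.58 CPM. Within that tier the first pair and the last pair each lay within their spread.

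**Figure D3:**
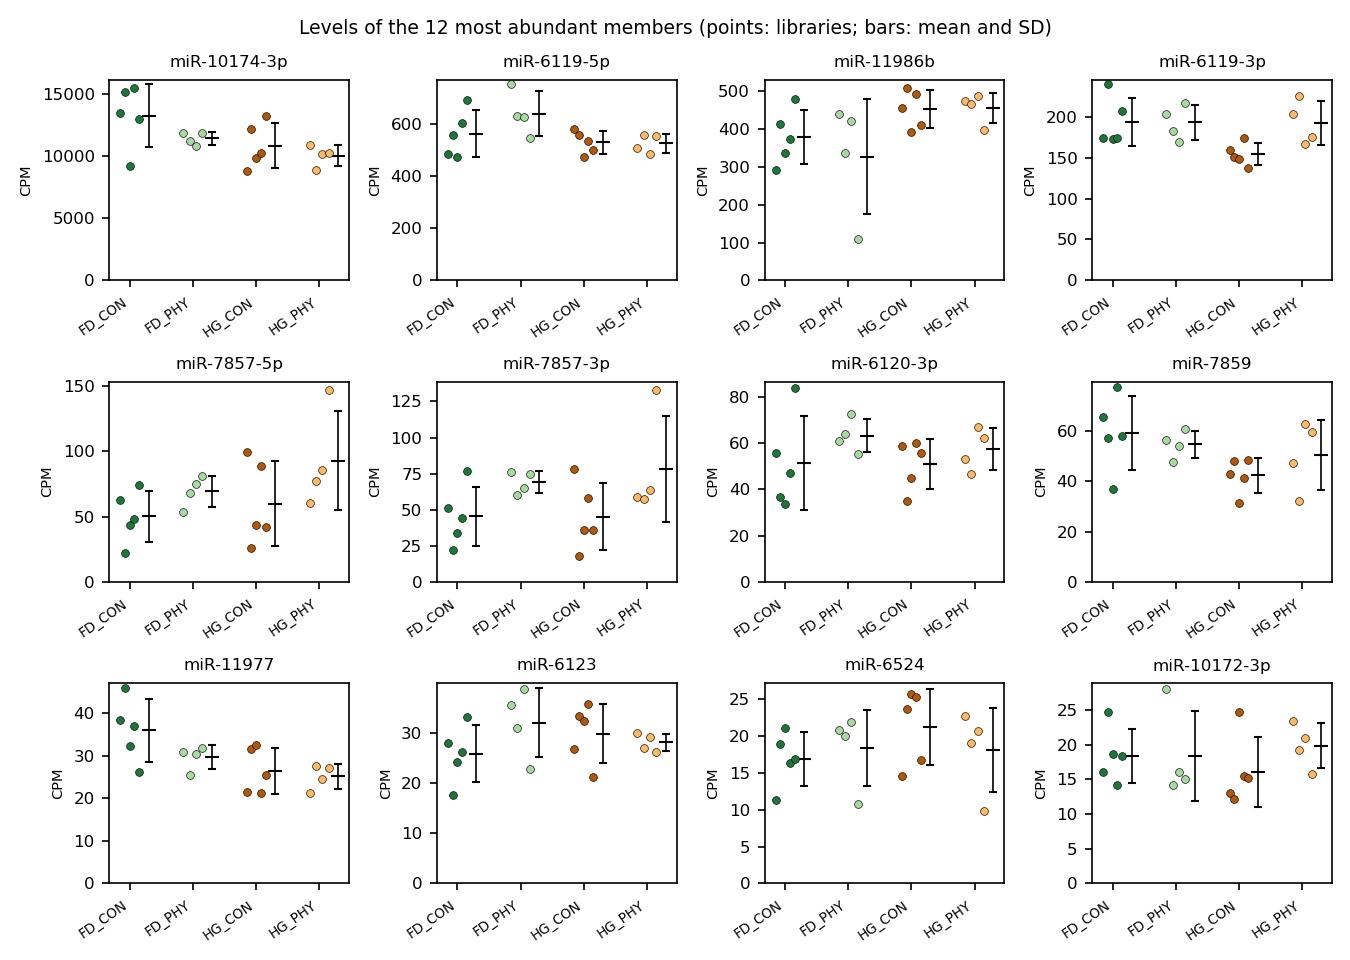
CPM of the 12 most abundant members in each library, with 1 panel per member and a linear axis from 0. Points are libraries and bars are the group mean and SD (5, 4, 5 and 4 libraries). The groups overlap in every panel, and 1 FD_PHY library stands low for miR-11986b at 109 CPM.

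Steadiness differed among the tested members. The fitted spread between libraries of a group, as a residual SD on the log2 scale, ran from 0.17 for miR-6119-5p to 2.14 for miR-8549. Its median was 0.64 over the 46 tested members and 0.42 over all 468 tested miRNAs. Beside non-members of like level (within 0.5 on the log2 CPM scale), 23 of the 46 members had more than the median spread. The split was not even over levels. Of the tested members from miR-12003 (mean 3.14 CPM) upwards, only miR-11986b, miR-7857-5p, miR-7857-3p and miR-6524 were above that median. Most of the tested members with a lower mean were above it. miR-8549, named after its values were seen, had 237 of its 486 reads in FD_CON replicate 4 and 95 in HG_CON replicate 2, and was not listed in 4 libraries.

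Most members lie inside other genes. In RefSeq (assembly ARS-UCD2.0, used only for names and for which gene holds another) 127 of the 133 names matched a miRNA gene, 126 of them on the chromosome the files give. A protein-coding gene contained 101 of them. Counted by hairpin, 79.3% of 121 matched member precursors lay within a protein-coding gene, against 54.5% of 321 older precursors, 76.9% of the matched miR-2284 and miR-2285 precursors and 82.2% of those from miR-2286 to miR-2490. The hosts were of varied function. miR-6119 (X chromosome) lies within RPL39, a gene for a protein of the large ribosomal subunit. miR-11986b and miR-7858 (chromosome 20) both lie within OCLN, which encodes occludin, a protein of the tight junctions that seal epithelia. miR-6120 lies within CSNK1G2, a casein kinase gene, miR-7859 within PTGR2, whose enzyme acts on prostaglandins, and miR-6524 within PDCD4, a translation inhibitor. miR-6529a lies within GSK3B, the kinase of glycogen and Wnt signalling. miR-7857 and miR-11977 lie in no other gene of the table, and miR-6123 lies in a long noncoding RNA. Whether a member lies on its host's strand or in an intron is not given here, and the host transcripts were not measured.

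The change from forage to grain was tested on raw counts with edgeR's quasi-likelihood test over all 468 miRNAs that passed its filter on low counts, 46 of them members. The remaining 86 members were too sparse to test. No member passed an adjusted p of 0.05 in the effect averaged over both arms, where the background over all miRNAs was 0.214%. DESeq2 and limma-voom also called 0, here and in each of the other 5 comparisons. DESeq2 gave no adjusted p for some members, among them miR-11977 and miR-7858 in the averaged effect, so it could not call these. At an unadjusted p under 0.05, 3 of the 46 members were lower on grain and 0 were higher. That is 6.52%, against a background of 10.7% in both directions, 6.41% lower and 4.27% higher. The share lower on grain was thus near that of all miRNAs, and no difference from the background is read from 3 members. With DESeq2 4 members had an unadjusted p under 0.05 (8.70%, background 11.3%), and with limma-voom 5 (10.9%, background 15.2%). A total of 28 of 46 tested members had a log2 change below 0 (60.9%, background 50.9%), and the median change was −0.08, against −0.01 over all tested.

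The lowest p belonged to miR-11977, an intergenic miRNA of chromosome 18. FD_CON replicates 1 to 5 had 38.4, 45.9, 32.4, 37.1 and 26.2 CPM, and FD_PHY replicates 1 to 4 had 31, 25.4, 30.5 and 31.8 CPM. On grain HG_CON had 21.5, 31.6, 32.4, 21.3 and 25.5 CPM, and HG_PHY had 21.4, 27.7, 24.6 and 27.3 CPM. All 9 grain libraries were below the forage mean of 33.2 CPM, but the groups overlapped. The log2 change was −0.34 ± 0.13 (SE), and its edgeR adjusted p of 0.317 missed the threshold. On adjusted counts, which were 0.25 of the raw reads of this name, the change was −0.36 (edgeR adjusted p = 0.317). Splitting shared reads does not show which site they came from, so their part in the difference was not tested.

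The site of miR-10174-3p and miR-23b-3p came next. FD_CON libraries had 13498, 15171, 9197, 15534 and 12990 CPM and FD_PHY libraries 11850, 11214, 10828 and 11851 CPM. HG_CON libraries had 8808, 12200, 9829, 10232 and 13229 CPM and HG_PHY libraries 10930, 8856, 10185 and 10260 CPM. Grain was lower than the forage mean in 8 of 9 libraries, and the ranges overlapped. The log2 change was −0.24 ± 0.10, with an edgeR adjusted p of 0.330. Under the older name, with names kept apart, the change of miR-23b-3p was −0.30 ± 0.11 (adjusted p = 0.282). Its cluster neighbours had changes of 0.05 ± 0.07 (miR-27b, adjusted p = 0.849) and 0.03 ± 0.09 (miR-24-3p, adjusted p = 0.921), whereas miR-23a, a near copy from another locus that can share reads, had −0.28 ± 0.15 (adjusted p = 0.491). The adjusted count was 0.99 of the raw count for miR-27b but 0.34 for miR-24-3p, whose reads therefore fit other names as well. Which site the reads of miR-24-3p came from was not tested. The sum of the muscle markers, led by miR-143, was lower on grain too, with medians of 143650 CPM on forage and 107890 CPM on grain. So was that of the endothelial markers, with medians of 14373 and 12911 CPM and overlapping ranges. Leukocyte markers had medians of 3570 CPM on forage and 3308 CPM on grain, and erythroid markers 8948 and 10524 CPM, also with overlap. The part of these markers in the difference, or in any other change given here, was not tested.

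The members within OCLN had changes of opposite sign, neither past the threshold. miR-7858 averaged 7.61 ± 1.45 CPM in the forage libraries and 5.69 ± 2.61 CPM in the grain libraries (SD, 9 libraries per diet), with 8 of 9 grain libraries below the forage mean. Its log2 change of −0.47 ± 0.22 had an edgeR adjusted p of 0.451. miR-11986b averaged 356 ± 110 CPM in the forage and 454 ± 43.4 CPM in the grain libraries, with 9 of 9 grain libraries above the forage mean, which FD_PHY replicate 4 lowers with 109 CPM. The change was 0.37 ± 0.18, with an adjusted p of 0.465, and without FD_PHY replicate 4 it was 0.22. Last of the 5 lowest p was that of miR-6119-5p, whose forage level of 599 ± 92.9 CPM compared with 530 ± 38.1 CPM on grain, with 9 of 9 grain libraries below the forage mean and a change of −0.18 ± 0.09 (adjusted p = 0.465). None of the 5 is a call.

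**Figure D4:**
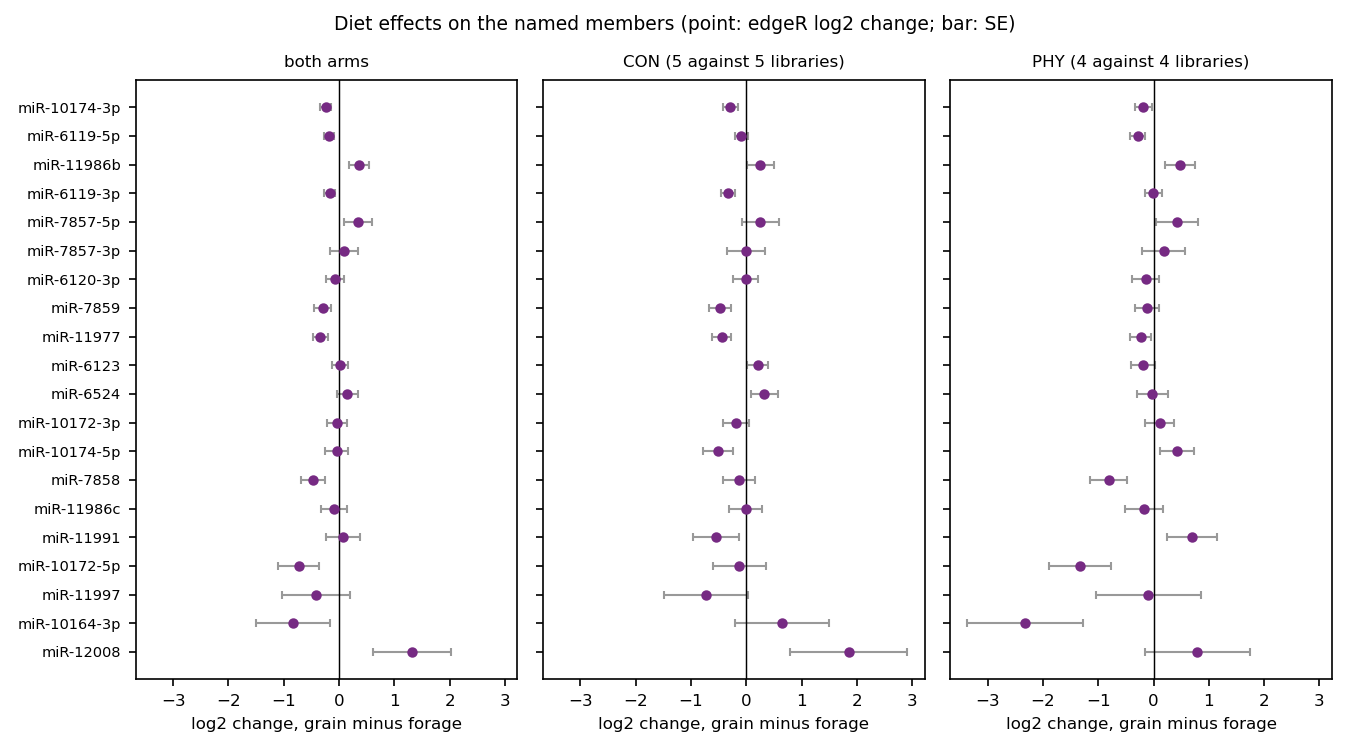
Diet effects (log2 change, grain minus forage) on the 20 named members that were tested, from edgeR, with bars of 1 SE. From left to right are the averaged effect, CON and PHY. Abundant members lie close to 0, and those at the foot of the plot, such as miR-10164-3p and miR-12008, have wide errors.

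In control cows alone no member passed the adjusted threshold (background 0%). At an unadjusted p under 0.05 there were 4 of 46, all lower on grain (8.70%, background 10.7% in both directions and 6.84% lower): miR-11977 (−0.44 ± 0.18), miR-6119-3p (−0.33 ± 0.13), miR-7859 (−0.48 ± 0.20) and miR-10174-3p (−0.29 ± 0.13). The lowest edgeR adjusted p of a member was 0.397. miR-6119-3p had 174, 240, 173, 174 and 207 CPM in FD_CON and 159, 151, 148, 174 and 138 CPM in HG_CON, so 1 HG_CON library reached into the forage range. Among the 46, 32 changes were below 0 (69.6%, background 53.8%), with a median of −0.14 against −0.02 over all tested. No member had groups that did not overlap (background 1.07%).

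In the PHY arm no member passed either (background 0%). Here 3 of 46 were lower at an unadjusted p under 0.05 (6.52%, background 7.05% in both directions and 3.42% lower): miR-7858 (−0.81 ± 0.33), miR-10172-5p (−1.33 ± 0.56) and miR-10164-3p (−2.32 ± 1.05), the last of which had 9 reads in all HG_PHY libraries together and a change of −3.63 without HG_PHY replicate 4. The lowest edgeR adjusted p was 0.647. FD_PHY libraries had 9.36, 6.67, 9.63 and 6.97 CPM of miR-7858 and HG_PHY libraries 3.81, 3.23, 6.31 and 5.06 CPM, without overlap. Beside it, miR-6529a (11.7 to 14.4 CPM against 14.8 to 17.4 CPM) and miR-6523a (3.82 to 5.63 CPM against 5.88 to 7.89 CPM), both named for this after their values were seen, were higher on grain without overlap. These 3 of 46 are 6.52% of the tested members, with a background of 5.77%.

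Supplement arms were then compared within a diet. On forage no member passed the adjusted threshold (background 0%), and 1 of 46 had an unadjusted p under 0.05 (2.17%, background 4.7% in both directions and 2.14% higher). This was miR-12008, within RNF2, with 6 reads in all FD_CON libraries and 20 in FD_PHY, a change of 2.26 ± 1.08 (3.41 without FD_CON replicate 3) and an edgeR adjusted p of 0.929. Next were miR-10174-5p (−0.51 ± 0.29) and miR-11997 (−1.50 ± 0.86), with the same adjusted p of 0.929. miR-11997 was listed in 5 of 5 FD_CON libraries and 2 of 4 FD_PHY libraries, and its change was −2.44 without FD_PHY replicate 3.

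On grain no member passed (background 0%), and 3 of 46 were higher in PHY at an unadjusted p under 0.05 (6.52%, background 6.84% in both directions and 4.7% higher). miR-11991, within OSBPL9, had 2.37, 2.21, 0.630, 2.37 and 1.65 CPM in HG_CON and 4.88, 1.73, 5.68 and 3.43 CPM in HG_PHY, with a change of 1.09 ± 0.43 and the lowest edgeR adjusted p, 0.654. miR-6119-3p had 204, 225, 167 and 175 CPM in HG_PHY, against 138 to 174 CPM in HG_CON, a change of 0.32 ± 0.14 (adjusted p = 0.677) that was 0.21 without HG_PHY replicate 2. miR-7857-3p had a change of 0.79 ± 0.36 (adjusted p = 0.677), and of 0.45 without HG_PHY replicate 4, which had 133 CPM beside 57.4 to 63.8 CPM in the other 3. Each of the 3 had at least 1 HG_PHY library within the range of HG_CON. The comparisons of diet and of supplement share libraries, so they are not independent of each other.

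A difference of the diet effect between arms was tested by the interaction. No member passed (background 0%), and 2 of 46 had an unadjusted p under 0.05 (4.35%, background 2.14%). miR-10174-5p had group means of 8.19 ± 1.71 CPM in FD_CON, 5.72 ± 1.93 in FD_PHY, 5.74 ± 2.2 in HG_CON and 7.72 ± 1.61 in HG_PHY (SD, n = 5, 4, 5 and 4), and an interaction of 0.94 ± 0.41 in the log2 change. miR-10164-3p had −2.97 ± 1.35, with 28, 38, 38 and 9 reads in the same order of groups. Next by p was miR-11991 with 1.24 ± 0.62. All 3 had an edgeR adjusted p of 0.997.

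Ratios within a library do not depend on its scaling, and 5 pairs of members from 1 locus had reads in every library. They were chosen once the layout of the names was known, and the miR-10174 pair was added after the other 4 had been computed. Each was compared between 9 forage and 9 grain libraries with an exact two-sided permutation test of the mean log2 ratio over all 48620 arrangements, adjusted over the 5 pairs. That test exchanges libraries freely, with no account of arm or of the 9 cows having given both diets.

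The pair within OCLN stood apart. The files place miR-11986b at chr20:10188769-10188790 and miR-7858 at chr20:10187826-10187848, both on the minus strand, with starts 943 nt apart. Reads of miR-11986b over those of miR-7858 came to 42.9, 46.6, 57.3, 44.8 and 80.1 in FD_CON and to 47.1, 50.5, 43.8 and 15.7 in FD_PHY. On grain the ratios were 76.0, 43.8, 91.4, 68.3 and 113 in HG_CON and 124, 144, 77.2 and 78.8 in HG_PHY. Medians were 46.6 on forage and 78.8 on grain, with 8 of 9 grain libraries above the forage mean on the log2 scale and overlapping ranges. The mean log2 ratio rose by 0.95 (SD 0.63 on forage and 0.52 on grain, n = 9 each, exact permutation p = 0.00177, adjusted p = 0.00884). Without FD_PHY replicate 4, which had the lowest ratio, the difference was 0.77, and leaving out each library in turn gave 0.77 to 1.07 with adjusted p from 0.00144 to 0.0181. In CON the difference was 0.50 (exact p = 0.127). In PHY it was 1.51 with no overlap of the groups (exact p = 0.0286, the smallest that 70 arrangements allow). The difference between the arms was not tested. miR-7858 rests on 25 to 116 reads per library, and the ratio joins 2 members that were already among the 5 with the lowest p, so it adds no independent evidence of their changes.

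None of the other 4 ratios passed over all libraries. For the arms of the miR-6119 hairpin, 5p reads were 2.34 to 3.72 times the 3p reads, and the log2 difference between diets was 0.02 (exact permutation adjusted p = 0.873). The arms of the trial had opposite signs, with 0.25 in CON (exact p = 0.0794) and −0.27 in PHY (exact p = 0.114), and the difference between them was not tested. For miR-7857 the ratio of 5p to 3p reads had a median of 1.10 on forage and 1.27 on grain, a log2 difference of 0.25 with an adjusted exact p of 0.0608. Adjusted over the 4 pairs without miR-10174 the p was 0.0486, so the side of the threshold depends on that pair. The difference was 0.24 in CON (exact p = 0.0794) and 0.26 in PHY (exact p = 0.257). RefSeq lists 2 copies of the miR-7857 gene, and reads of the 5p arm are shared. The miR-10172 arms, from within BEGAIN, gave 3p over 5p ratios of 5.24 to 59, with a log2 difference of 0.62 that did not pass (adjusted exact p = 0.311), on as few as 4 reads of the 5p arm. In CON the difference was −0.04 (exact p = 0.944). In PHY it was 1.44, with 5.24 to 13.2 on forage and 19.2 to 27.8 on grain and no overlap (exact p = 0.0286, again the smallest possible and not adjusted), and the difference between the arms of the trial was not tested. The miR-10174 arms, which share reads with those of miR-23b, had 3p over 5p ratios of 1066 to 2702 and a log2 difference of −0.14 (adjusted exact p = 0.620), with 0.27 in CON (exact p = 0.325) and −0.65 in PHY (exact p = 0.0857).

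**Figure D5:**
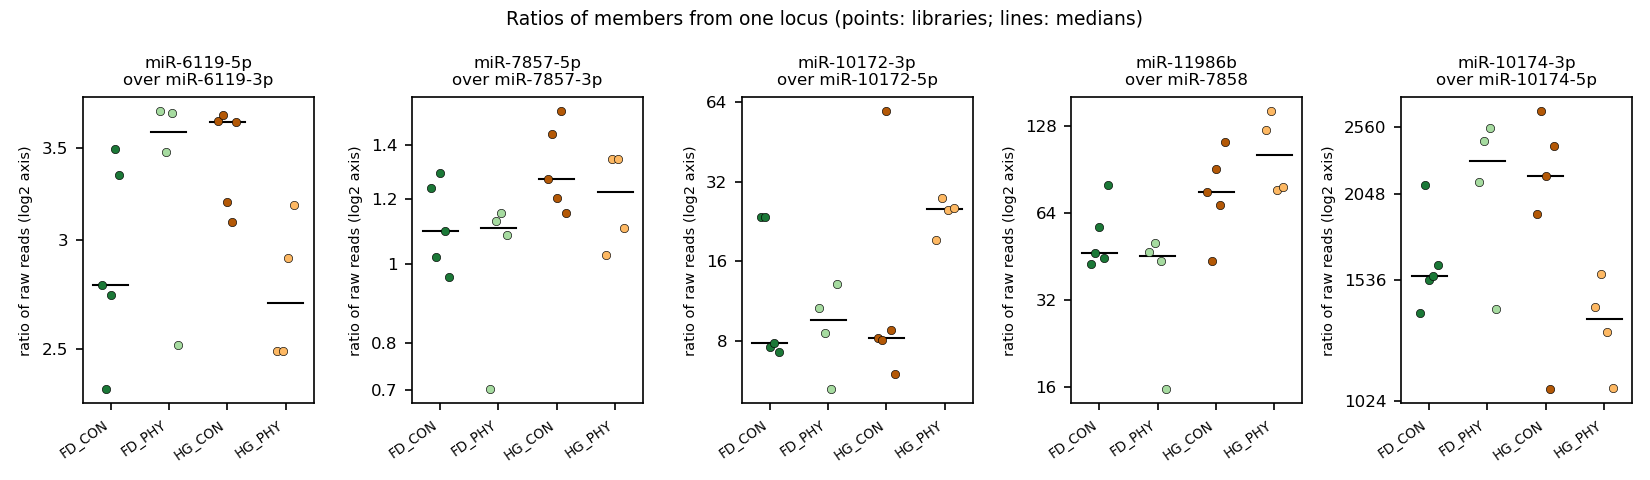
Ratios of raw reads of 5 pairs of members from 1 locus in each library (log2 axis, with points for libraries and lines for group medians). For miR-11986b over miR-7858 the grain libraries sit at 43.8 to 144 and the forage libraries at 15.7 to 80.1.

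The pairs left were not listed in every library, or lie at different loci. miR-6120-3p had 9351 reads, while its partner miR-6120-5p was listed in 5 libraries with at most 1.11 CPM. Both arms of miR-10175, within PTGS1, a prostaglandin synthase gene, and of miR-10182, within FGF12, stayed below 1 CPM in every library, as did miR-10225a and miR-10225b, whose sites lie 4431 nt apart on chromosome 26. Of the letter pair miR-11986b and miR-11986c, which lie on chromosomes 20 and X, the second had 4.25 ± 1.27 CPM and a diet change of −0.09 ± 0.23 (edgeR adjusted p = 0.915).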

How the data were processed

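The labels' protocols name the NucleoSpin miRNA kit for extraction and the NETflex Small RNA-Seq kit for library construction. Of software, bcl2fastq 2.20 and DESeq2 (no version or role) appear in the submitters' processing notes. Neither aligner nor genome build is given in the sources used here. The deposited library files hold, per the file headers, a raw read count for each name, the number of distinct reads, an expected count made by the authors by splitting reads over all names they fit, and RPM, which served here only for read totals. The authors' normalized table was not used.

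Names whose positions overlap by 15 nt or more, and bovine and human names of 1 miRNA with totals within 5%, were tested once under the name with the most reads, which left 824 miRNAs. Counts were analysed with edgeR 4.0.16 in R 4.3.3 (TMM, filterByExpr, a mean per group, 18 libraries), with Benjamini-Hochberg adjustment over 468 miRNAs at 0.05, two-sided. Scripts were tested on simulated data. CPM is scaled by TMM. The model has no cow term and so treats 18 libraries from 9 cows as independent, which the p-values carry. Named members were the 12 most abundant, the 5 with the lowest p in the averaged diet effect and the 3 with the lowest p in each other comparison, and pairs of arms or letters. Members, lists and the rule were chosen with earlier results of these data known. Alternatives were DESeq2 1.42.0, limma-voom 3.58.1 with quality weights, RLE scaling, other filters, adjusted counts, names kept apart, a replicate block and leaving out each library. Ratios of 2 members were compared by an exact permutation test over libraries, without cow or arm. Alternatives on the read share without miR-10174-3p, on ratios without 1 library and on ratios adjusted over 4 pairs were added after the data were seen.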

Additional observations from a re-analysis of the deposited data

Results flagged for a closer look

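Among 100 sets of values (the named members, the ratios, the read share and the number of members listed, each within a group), 8 had a library far from the rest by Dixon's criterion. Chance alone flags about 1 set in 20. HG_PHY replicate 4 had 133.1 CPM of miR-7857-3p, beside 57.4 to 63.8 CPM in the other libraries of its group. FD_PHY replicate 4 had 10.79 CPM of miR-6524, while the other libraries of its group reached up to 21.9 CPM. For miR-10172-3p, FD_PHY replicate 1 had 28.09 CPM beside 14.3 to 16.1 CPM, and HG_CON replicate 3 had 24.77 CPM beside 12.1 to 15.5 CPM. HG_CON replicate 4 had 9.6 CPM of miR-10174-5p, beside 4.51 to 5.49 CPM. The ratio of miR-7857-5p to miR-7857-3p was 0.7011 in FD_PHY replicate 1 and 1.08 to 1.15 in the rest of that group. In HG_CON replicate 3 the ratio of miR-10172-3p to miR-10172-5p was 59, beside 6 to 8.82, on 4 reads of the 5p arm. FD_PHY replicate 3, with 6.56 M reads (mega-reads), listed 60 members, beside 66 to 67.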

How the results depend on the processing

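The count of members past the threshold was 0 in all 6 comparisons under every alternative that could be fitted, including DESeq2, limma-voom and each of 18 fits without 1 library. For DESeq2 this leaves out members without an adjusted p, such as miR-11977 and miR-7858 in the averaged diet effect. Over the named members' changes the lowest adjusted p under any alternative was 0.1295. The share of reads was 0.1623% without miR-10174-3p. Detection in all libraries fell to 19 names at 10 reads and 20 at 1 CPM. Of 35 named log2 changes, 27 never changed sign over 878 alternatives in all, and 25 of the 878 had the opposite sign, from 8 members whose main changes lay between −0.42 and 0.09. With limma-voom the diet effect was −0.001251 for miR-7857-3p, −0.02146 for miR-6123 and 0.1886 for miR-11997. Leaving out 1 library gave ranges of −0.1083 to 0.2226 for miR-7857-3p, −0.1414 to 0.04799 for miR-6120-3p, −0.06321 to 0.0639 for miR-6123, −0.1543 to 0.1091 for miR-10172-3p, −0.1715 to 0.08353 for miR-10174-5p, −0.6364 to 0.03377 for miR-11997, −0.02754 to 0.1829 for miR-11991 and −0.1768 to 0.01404 for miR-11986c. The log2 ratio of the miR-6119 arms lay between −0.03241 and 0.05819, and that of the miR-7857 arms between 0.1747 and 0.2864, where 4 of 18 fits passed the threshold, with adjusted p from 0.0216 to 0.129. The cause of these shifts was not tested.

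The labels give CON and PHY cows the same numbers on both diets without saying that a number marks a cow. Of 9 same-numbered pairs of libraries, 3 deviated together (correlation over 0.1, range −0.0164 to 0.393), and 2 of 9 were closest to their own number. Pairs with different numbers reached 0.265 in CON and 0.155 in PHY, so these values do not settle whether a number marks a cow. With the replicate number as a block, 0 members passed in the averaged diet effect, in CON, in PHY and in the interaction, and 5, 5, 2 and 1 of 46 had an unadjusted p under 0.05 (10.9%, 10.9%, 4.35% and 2.17%, against 15.4%, 13.5%, 9.62% and 5.98% of all miRNAs), with lowest adjusted p of 0.1566, 0.2407, 0.2808 and 0.6383. No block fit can compare PHY with CON within a diet, since the arms share no cow.

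Depth limits what can be said of the 86 untested members, which have few reads in any library.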
